A study of Homo sapiens with 12 samples.

Results

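Whole AC16 cells labelled Ang were compared with whole AC16 cells labelled Con, 3 libraries each, by the number of unique molecular identifiers (UMIs, a barcode that counts each captured molecule once) per mature miRNA name. These 6 of the series' 12 libraries were chosen by their labels (whole cells, Con 1 to 3 and Ang 1 to 3). The other 6 libraries are exosomes of the same line. AC16 is an established human cardiomyocyte line, made by fusing adult ventricular cells with an immortalised fibroblast line, and all 6 cell libraries come from this 1 line with no genetic change named. Con is named without further description. The word AngII stands in the headers of the Ang files' columns. It usually abbreviates angiotensin II, but no label spells it out, and none gives a dose or a time. Whether the replicates of a group are separate cultures is not stated. The p-values then cover no more than the spread among these 6 samples, which may be technical. The series' design names hypertrophic cardiomyocytes as its subject, and the comparison asks which miRNAs differ inside the cells themselves.

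Angiotensin II is a peptide hormone of blood pressure control that acts on cardiomyocytes and cardiac fibroblasts through a G-protein-coupled receptor, and it is widely used to induce hypertrophic growth in culture. A miRNA is cut from a hairpin precursor that can yield a mature product from each arm, named 5p and 3p, and it pairs with target mRNAs mainly through its seed, bases 2 to 8 from the 5′ end. In heart muscle the best known miRNAs are miR-1 and miR-133, which are tied to the differentiated state, and miR-208a, miR-208b and miR-499a, which sit inside cardiac myosin heavy chain genes.

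The names the results below turn on are printed 5′ to 3′ with the seed in capitals, as RefSeq gives the mature sequence (GRCh38.p14). Of the 2656 names counted in cells, 2367 (89.1%) matched a RefSeq mature miRNA. The first 5 are names that were higher in Ang under every alternative analysis run.

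miR-3922-5p: uCAAGGCCagaggucccacagca
miR-1246: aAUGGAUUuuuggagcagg
miR-6510-3p: cACCGACUcugucuccugcag
miR-506-3p: uAAGGCACccuucugaguaga
miR-125b-1-3p: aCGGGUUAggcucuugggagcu

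The next 7 were lower in Ang under every alternative analysis run, and they include 2 of the most abundant names of these cells, miR-510-3p and miR-1231.

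miR-320d: aAAAGCUGgguugagagga
miR-320c: aAAAGCUGgguugagagggu
miR-3194-5p: gGCCAGCCaccaggagggcug
miR-8064: aGCACACUgagcgagcggac
miR-5582-3p: uAAAACUUuaagugugccuagg
miR-510-3p: aUUGAAACcucuaagagugga
miR-1231: gUGUCUGGgcggacagcugc

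The last 6 are shown because they share a seed with a changed name or because 1 library carries them. miR-320b has the seed of miR-320c and miR-320d, miR-3131 and miR-611 share a seed, as do miR-208a-3p and miR-208b-3p, and miR-126-3p was far higher in 1 Ang library.

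miR-320b: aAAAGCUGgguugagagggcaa
miR-3131: uCGAGGACugguggaagggccuu
miR-611: gCGAGGACcccucggggucugac
miR-208a-3p: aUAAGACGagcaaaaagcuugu
miR-208b-3p: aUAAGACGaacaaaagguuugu
miR-126-3p: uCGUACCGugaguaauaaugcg

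Cell libraries held between 413513 and 528844 UMIs, with means of 489634 ± 57166 (SD, n = 3) in Con and 472289 ± 52111 in Ang. Between 2587 and 2623 of the 2656 names had a count in each cell library, and a floor of 3 counts came to 5.67 to 7.25 CPM, the usual unit of counts scaled to a common library total. That floor marks very low counts only, and names above it still carry counting error. After a filter on low counts 1630 names were tested, which held at least 98.9% of the UMIs of every cell library. Muscle miRNAs were scarce for a cardiomyocyte line. miR-1-3p stood at 17.0, 11.6 and 7.07 CPM in Con and 4.08, 7.25 and 5.85 in Ang, at or near the floor, and miR-133b at 5.81 to 17.5 CPM over the 6 libraries. miR-133a-3p stood at 8.15 to 27.3 CPM and miR-208a-3p, from an intron of MYH6, at 152 to 252 CPM.

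Ang replicate 2 stood apart from the other cell libraries. Over the tested names its counts differed from those of the other Ang libraries with a chi-square of 4.72 and 5.25 for each degree of freedom. The other Ang libraries differed from each other with 2.26, and the Con libraries among themselves with 1.41 to 2.23. It held 12 names at 50 CPM or more and at least 2-fold above every other cell library, against 3 in Con replicate 2 and 0 in each of the other 4. The red cell miRNA miR-451a stood at 218 CPM in it and at 3.90 to 10.2 in the other 5 libraries. The liver miRNA miR-122-5p stood at 181 CPM against 0 to 9.69, and miR-486-5p of red cells and muscle at 929 against 30.6 to 63.7. For miR-142-3p, a miRNA of white blood cells, the library had 2041 CPM against 99.0 to 145. The endothelial miR-126-3p reached 4007 CPM against 274 to 318. Others of the 12 were miR-150-5p of lymphocytes (302 CPM), miR-142-5p, miR-144-5p and let-7c-5p (873 CPM against 219 to 303), and also miR-4505, miR-6131 and miR-4661-5p.

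Summed over each whole marker list, the same library stood out. The 10 blood cell names summed to 2349, 2467 and 2236 CPM in Con and to 2135, 7069 and 2264 in Ang, and all 10 were highest in Ang replicate 2. The 2 endothelial names summed to 575, 595 and 674 CPM in Con and to 524, 4665 and 517 in Ang. For the 5 liver names the sums were 155, 169 and 123 in Con and 159, 355 and 179 in Ang, and 3 of the 5 were highest in Ang replicate 2. Apart from Ang replicate 2, the Ang sums lay below every Con sum for the endothelial list, overlapped Con for the blood cell list and lay within or just above the Con range for the liver list. The exact two-sided permutation p over the 6 libraries was 0.9 for blood cell, 1 for endothelial and 0.2 for liver names, where 3 against 3 cannot go below 0.1. For the blood cell and endothelial sums 1 library is so high that every split gives a large difference. Their high p therefore does not show equal sums. Neuronal names summed to 981 to 1039 CPM in all 6 libraries, and epithelial names to 393 to 434 CPM in Con and 427 to 544 in Ang (exact permutation p = 0.2). Muscle names summed to 452, 452 and 424 CPM in Con and to 334, 1255 and 394 in Ang (exact permutation p = 1). Of the 1255, miR-486-5p made up 929, and this p is to be read like those of the blood cell and endothelial sums. Entries that overlap fragments of other RNAs summed to 28820 to 34284 CPM (exact permutation p = 0.3). In these 7 lists no name was at 0 in all 3 libraries of either group. The tests in cells were therefore run with and without Ang replicate 2, and the part of these marker names in the other results was tested only by leaving out that library or the names themselves.

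**Figure D1:**
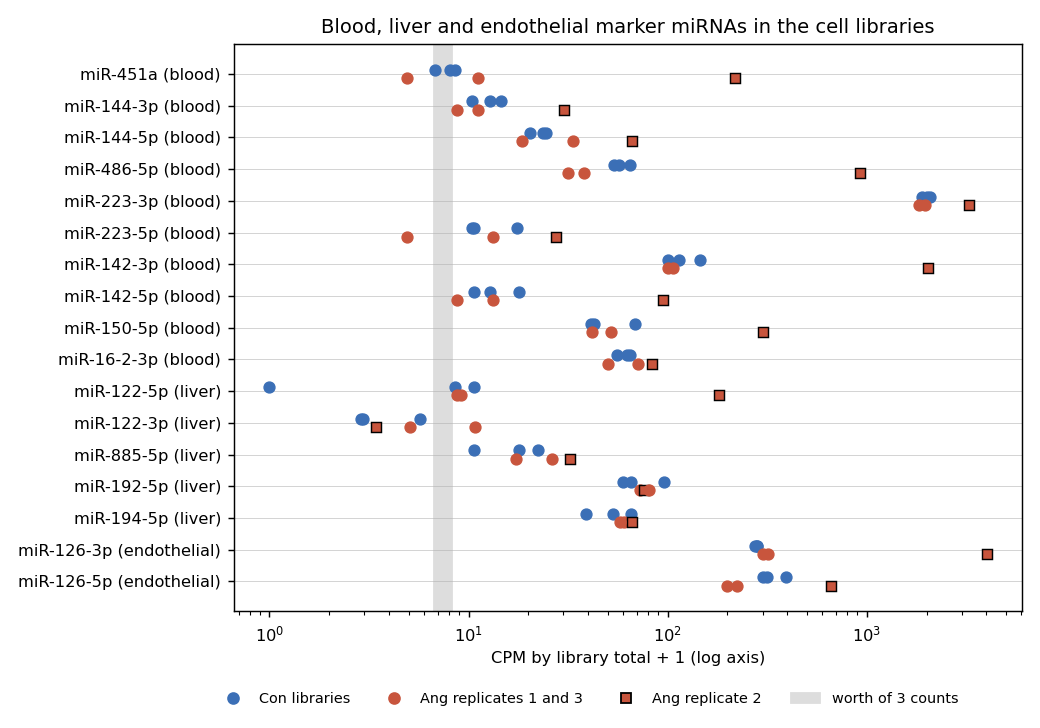
Levels of blood cell, liver and endothelial marker miRNAs in the 6 cell libraries, as CPM by library total plus 1 on a log axis; circles are the Con libraries and Ang replicates 1 and 3, black-edged squares are Ang replicate 2, and the grey band is what 3 counts are worth. The square lies to the right of all circles in every row but those of miR-122-3p and miR-192-5p and, by a small step only, miR-194-5p.

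In the cells 107 of 1630 tested names passed an adjusted p of 0.05, which is 6.56% of those tested. Of these, 45 (2.76%) were higher in Ang and 62 (3.80%) lower, and 313 names had an unadjusted p under 0.05. The changes were small. The median fold was 1.40 among the higher names and 1.34 among the lower ones, 4 names (0.245% of those tested) changed at least 2-fold (miR-126-3p, miR-3922-5p, miR-4731-3p and miR-320d), and the median log2 change of all tested names was 0.02. The changed names were mostly well counted, with a median of 665 CPM for the higher and 952 for the lower names against 87.5 CPM over all tested names. In Con the higher names together held 5.39% ± 0.085 of all UMIs (SD, n = 3) and in Ang 7.0% ± 0.13, and the lower names held 13.6% ± 0.72 and 10.3% ± 0.27. In Ang replicates 1 and 3 the same higher names held 7.05% and 6.85% and the lower names 10.3% and 10.1%. Those shares describe names chosen for their change and are no test of it. The groups did not overlap in CPM for 45 of the 45 higher and 61 of the 62 lower names, and for 22.4% of all tested names (Ang above Con for 12.5% and below for 9.94%). Leaving out Con replicate 2 or Con replicate 3 gave 38 names each, and leaving out Ang replicate 1 gave 70. Such fits have fewer libraries, and what lowered the count was not tested. Under all 16 alternatives run, 31 names (12 higher, 19 lower) passed.

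**Figure D2:**
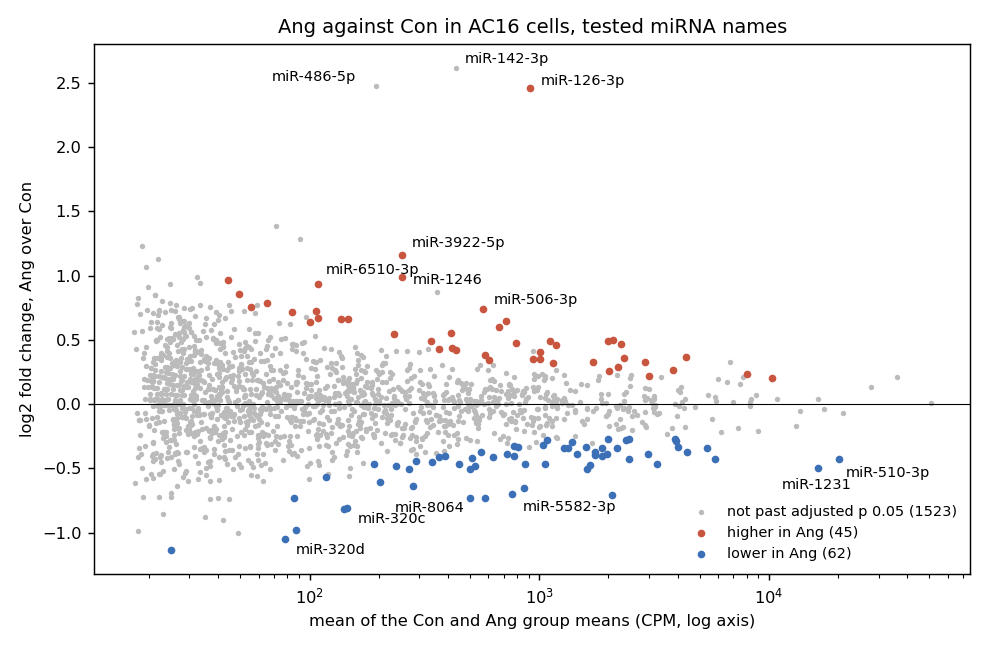
Log2 fold change of Ang over Con against the mean level in CPM (log axis) for the 1630 names tested in cells; red points were higher (45) and blue points lower (62) at an adjusted p under 0.05, grey points did not pass. The coloured points spread over all levels above about the lowest ones, the 2 most abundant of them, miR-510-3p and miR-1231, are lower, and the points at the top include the marker names carried by Ang replicate 2.

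Among the names that rose, miR-3922-5p, from within an intron of CHST11, which encodes a chondroitin sulfotransferase (GRCh38 chr12:104591645-104591667, plus strand), stood at 163, 161 and 141 CPM in the Con libraries and 385, 339 and 331 in the Ang libraries. All 3 Ang libraries were above all 3 Con libraries by a wide margin, and the rise was 2.24-fold (log2 1.16, SE 0.123, adjusted p = 9.38e-05). Next came miR-1246, an entry that overlaps a fragment of a U2 small nuclear RNA, at 149, 174 and 182 CPM in the Con libraries and 318, 331 and 363 in the Ang libraries. Its Con and Ang libraries were likewise far apart, and it rose 1.99-fold (log2 0.99, SE 0.123, adjusted p = 0.00026). Because such reads can come from the small nuclear RNA itself, its value is uncertain as that of a miRNA. miR-6510-3p, from an intron of the keratin gene KRT15, rose 1.91-fold, with 71.9, 87.2 and 63.7 CPM in the Con libraries and 163, 145 and 125 in the Ang libraries. miR-506-3p, from a cluster on the X chromosome, stood at 414, 461 and 391 CPM in the Con libraries and 746, 679.5 and 709.8 in the Ang libraries. Each Ang library exceeded each Con library, and the rise was 1.67-fold (log2 0.74, SE 0.0944, adjusted p = 0.000282). These 4 names passed under all 16 alternatives, Ang replicate 2 left out among them. The names with the largest rises and falls were chosen only where the groups did not overlap, so that separation is no added support.

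The other 6 of the 10 largest rises were less firm. miR-126-3p had the largest fitted change, 5.50-fold (log2 2.46, SE 0.697, adjusted p = 0.0445), with 274, 279 and 281 CPM in the Con libraries and 302, 4007 and 318 in the Ang libraries. Only Ang replicate 2 was far above the rest, and without it the change was log2 0.14, adjusted p = 0.644. The call also ended when any Con replicate was left out, with limma-voom, with edgeR's robust option and in a fit of all 12 libraries. miR-7160-5p (29.8 ± 9.60 to 58.8 ± 11.6 CPM (SD, n = 3)), miR-6826-3p from an intron of COPG1 (34.5 ± 7.03 to 63.8 ± 3.48 CPM (SD, n = 3)) and miR-676-5p from an intron of EDA (41.1 ± 6.15 to 70.5 ± 10.7 CPM (SD, n = 3)) were low names. Their log2 changes were 0.96, 0.85 and 0.76. The call of miR-676-5p ended when any one library was left out (adjusted p up to 0.188), that of miR-7160-5p without Con replicate 1 or 3 or Ang replicate 1 or 3 (up to 0.177), and that of miR-6826-3p in all omissions but that of Con replicate 2 (up to 0.133). miR-1303, on chromosome 5, stood at 47.3, 48.4 and 47.2 CPM in the Con libraries and 93.8, 70.1 and 83.8 in the Ang libraries. miR-6781-3p, from an intron of the autophagy gene BECN1, had 79.9 ± 14.4 to 134 ± 33.9 CPM (SD, n = 3). Without any single library but Ang replicate 2, miR-1303 did not pass (adjusted p up to 0.102), and miR-6781-3p did not pass without any Con replicate or Ang replicate 3 (up to 0.197). Other settings also ended some of these calls: no count filter for miR-676-5p, miR-6826-3p and miR-7160-5p, the 10 CPM filter for miR-676-5p and miR-7160-5p, RLE size factors for miR-676-5p, limma-voom for miR-676-5p and miR-6781-3p, DESeq2 for miR-1303 and miR-6781-3p, and the fit of all 12 libraries for miR-6781-3p.

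Among the names that fell, miR-320d and miR-320c belong to the family of miR-320a, whose hairpin is made without the nuclease Drosha. miR-320d stood at 108, 107 and 99.0 CPM in the Con libraries and 44.9, 58.0 and 50.7 in the Ang libraries, and miR-320c at 170.2, 172 and 215 CPM in the Con libraries and 122, 94.3 and 101 in the Ang libraries. For both, every Ang library was below every Con library, and they fell 2.08-fold (log2 -1.05, SE 0.176, adjusted p = 0.00189) and 1.75-fold (log2 -0.81, SE 0.151, adjusted p = 0.00375). Their sequences differ only at the 3′ end, as printed above, so how reads were divided between them, and between them and miR-320b, depends on a counting step not given in the sources used here. miR-8064, from an intron of the TMEM110-MUSTN1 readthrough gene, stood at 647, 758 and 755 CPM in the Con libraries and 451, 447 and 415 in the Ang libraries. The 3 Ang libraries lay close together and well below Con, and the fall was 1.66-fold (log2 -0.73, SE 0.0963, adjusted p = 0.000282). miR-5582-3p, from an intron of the microtubule gene CKAP5, fell 1.63-fold (log2 -0.70, SE 0.0935, adjusted p = 0.000282), with 915, 876 and 1026 CPM in the Con libraries and 587, 612 and 548 in the Ang libraries. These 4 names passed under all 16 alternatives, as did miR-3194-5p from an intron of NFATC2 and miR-3170 from an intron of FARP1. NFATC2 encodes a calcineurin-regulated transcription factor. miR-3194-5p fell 1.76-fold, from 179 ± 30.2 to 102 ± 1.37 CPM (SD, n = 3). miR-3170 fell 1.66-fold, from 621 ± 38.7 to 379 ± 77.6 CPM (SD, n = 3), with Ang replicate 3 lowest at 292 CPM.

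The calls of the remaining 4 of the 10 largest falls did not hold under every omission of a single library. The falls themselves kept their direction, with log2 from -1.22 to -1.04 for miR-4731-3p and -1.16 to -0.85 for miR-3152-3p. For miR-5188 and miR-12121 the log2 ran from -0.86 to -0.56 and from -0.94 to -0.48. miR-4731-3p had the largest fitted fall, log2 -1.14, but at 34.4 ± 5.08 to 15.6 ± 1.33 CPM (SD, n = 3) it rested on few counts, and its call ended when any one library was left out (adjusted p up to 0.169) or with limma-voom or no count filter. miR-3152-3p, from an intron of ADAMTSL1, stood at 87.0, 120.2 and 141 CPM in the Con libraries and 48.9, 58.0 and 68.2 in the Ang libraries. Con replicate 1 was the lowest Con library and still above every Ang library, and the call ended without Con replicate 2 or 3 (adjusted p up to 0.058). miR-5188 had log2 -0.73 (106 ± 12.8 to 64.9 ± 14.5 CPM (SD, n = 3)), and it did not pass without Con replicate 2 or 3 or Ang replicate 1 or 3 (up to 0.141) or with DESeq2. miR-12121 was the most abundant of the 20 names, with 2101, 2531 and 3073 CPM in the Con libraries and 1649, 2065 and 1053 in the Ang libraries. Con replicate 1 and Ang replicate 2 all but touched, and the call ended without Con replicate 2 or 3 or Ang replicate 1 (adjusted p up to 0.17). With DESeq2 and with edgeR's robust option it also did not pass (adjusted p up to 0.333), while without Ang replicate 2 the change was log2 -0.94, adjusted p = 0.000221.

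**Figure D3:**
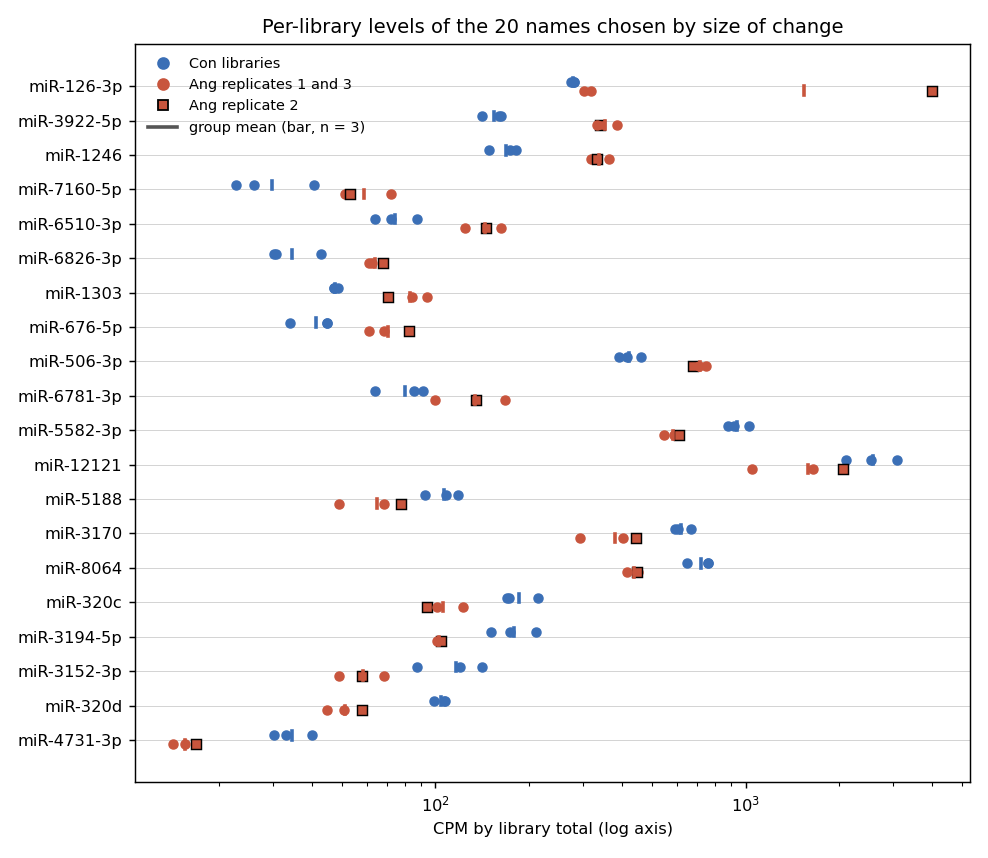
Level in each cell library, in CPM by library total on a log axis, of the 10 names with the largest rises (upper rows) and the 10 with the largest falls (lower rows) among names past the threshold; bars are group means (n = 3), and black-edged squares are Ang replicate 2. In every row the Con and Ang points do not overlap, which was a condition for choosing these names. The Ang mean of miR-126-3p stands far from Ang replicates 1 and 3 because of the single square at 4007 CPM.

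The largest changes in molecules were small folds of abundant names, described here after their values were seen except for miR-510-3p, which was among the 5 most abundant names. miR-510-3p, from the X-chromosome cluster of miR-506, stood at 21730.4, 22891 and 24401 CPM in the Con libraries and 17443, 19172 and 15223 in the Ang libraries. Every Ang library was lower than every Con library, and the fall was 1.34-fold (log2 -0.43, SE 0.0792, adjusted p = 0.00375). miR-1231, in an intron of the neuron navigator gene NAV1 (GRCh38 chr1:201808615-201808634, plus strand), stood at 18987, 19621 and 18694 CPM in the Con libraries and 13659, 13061 and 14314 in the Ang libraries, and fell 1.41-fold (log2 -0.50, SE 0.0570, adjusted p = 0.000146). Its groups were separated by several times the spread within each of them. miR-875-5p fell 1.34-fold, from 6665 ± 515 to 4999 ± 182 CPM (SD, n = 3), and like the other 2 it passed under all 16 alternatives. Of the rises at this level, miR-3150a-3p went from 9535 ± 89.6 to 11060.5 ± 123 CPM (SD, n = 3) and miR-664a-5p, cut from a small nucleolar RNA in RAB3GAP2, from 7353 ± 94.3 to 8738 ± 212 CPM (SD, n = 3). Both rises were near the threshold: miR-3150a-3p did not pass without any one library (adjusted p up to 0.171), nor did miR-664a-5p without Con replicate 2 or 3 or Ang replicate 1 or 3 (up to 0.126). No count filter and the fit of all 12 libraries ended both calls too, and RLE size factors, the 10 CPM filter and a replicate block that of miR-3150a-3p. The other most abundant names, let-7a-5p, miR-16-5p, miR-21-5p and miR-125b-5p, did not pass. miR-16-5p stood at 35642, 31918 and 32322 CPM in the Con libraries and 34195, 46618 and 35740.2 in the Ang libraries, where Ang replicate 2 was the highest of the 6 libraries. let-7a-5p had a mean of 50161 CPM in Con and 50994 in Ang. miR-21-5p, which is raised in many models of cardiac remodelling, stood at 27583, 25212 and 26330.0 CPM in the Con libraries and 29869, 28122 and 29797 in the Ang libraries (log2 0.14, adjusted p = 0.226), with no overlap but a small difference.

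Without Ang replicate 2, 1714 names were tested and 97 passed (5.66%), 40 higher (2.33%) and 57 lower (3.33%). Of the 107 names called with all libraries 85 remained and 22 did not, and all 107 kept their direction. miR-126-3p was the 1 called name whose fold moved by more than 1.5 times, and the next largest shift among the called names was 0.24 on the log2 scale. Among names that had not passed, the direction turned for blood markers: miR-142-3p had log2 2.61 with the library and -0.25 without it, miR-486-5p 2.47 and -0.77, and miR-150-5p 1.28 and -0.15. The largest changes that did not pass without it were those of miR-126-3p, miR-4731-3p (log2 -1.20, adjusted p = 0.0697), miR-6826-3p (log2 0.81, adjusted p = 0.0747), miR-676-5p (log2 0.64, adjusted p = 0.144) and miR-4695-3p (log2 0.59, adjusted p = 0.067). A further 12 names passed without it and not with it. One is miR-126-5p, the partner arm of miR-126-3p, at 301, 316 and 394 CPM in the Con libraries and 222, 658 and 199 in the Ang libraries. Ang replicates 1 and 3 were the lowest of the 6 libraries and Ang replicate 2 the highest, and the change went from log2 0.07 to a fall (log2 -0.69, adjusted p = 0.00474). Another is miR-212-5p of the miR-132 and miR-212 cluster (log2 -0.40, adjusted p = 0.0404). It stood at 1551, 1920 and 2151 CPM in the Con libraries and 1592, 1734 and 1279 in the Ang libraries. Ang replicate 1 lay above Con replicate 1, so the groups overlapped even with Ang replicate 2 left out.

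**Figure D4:**
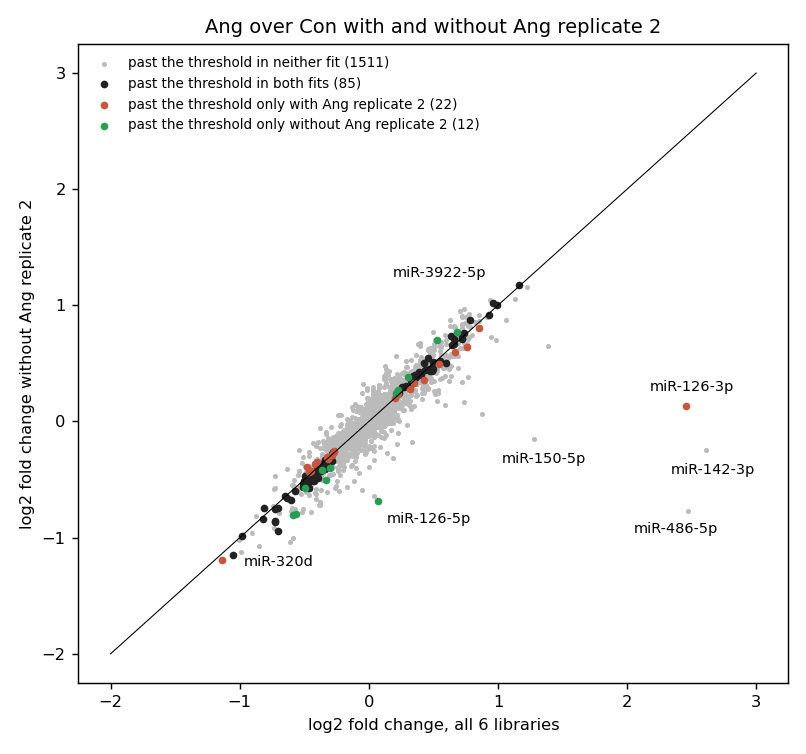
Log2 fold change of Ang over Con fitted without Ang replicate 2 against that from all 6 cell libraries, with the line of equality; black points passed in both fits (85), red only with all libraries (22), green only without Ang replicate 2 (12). Names called with all libraries lie near the line except miR-126-3p, and miR-142-3p, miR-486-5p and miR-150-5p lie far to its right. Among the green points miR-126-5p lies well below the line.

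The arms of a hairpin share a precursor, so their changes were set side by side. Both arms were tested for 384 hairpins, and in 189 of them (49.2%) both changes had the same sign. Of the 34 hairpins with a called arm 25 (73.5%) had both changes in the same direction. Both arms were called in 2 of the 34, miR-1910 and miR-433, where 6.56% of all tested names passed. That count is near the share over all names, and nothing about arms is drawn from it. Fitted without Ang replicate 2, the changes had the same sign in 201 of the 384 hairpins (52.3%) and in 20 of the 33 with a called arm (60.6%). miR-1910-5p, from an intron of C16orf74, went from 5987 ± 367 to 4775 ± 306 CPM (SD, n = 3) and miR-1910-3p from 879 ± 69.6 to 672 ± 76.5 CPM (SD, n = 3). miR-433-3p, from the imprinted chromosome 14 region, stood at 227, 248 and 257 CPM in the Con libraries and 169, 177 and 140.4 in the Ang libraries, and miR-433-5p at 469, 452 and 403 CPM in the Con libraries and 330.3, 305 and 376 in the Ang libraries. All 4 of these arms were below Con in every Ang library, but leaving out Con replicate 2 ended each of the 4 calls (adjusted p over the single-library omissions up to 0.0581 for miR-1910-5p, 0.139 for miR-1910-3p, 0.0581 for miR-433-3p and 0.147 for miR-433-5p). Library totals and the fit of all 12 libraries also ended the call of miR-433-5p. The called arm was the less abundant one in 4 of the 32 hairpins with a single called arm.

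For the 20 names with the largest changes, 6 partner arms were tested and none of them passed. miR-126-5p is described above. miR-6510-5p, the more abundant arm of its hairpin, had 1304 ± 69.2 in Con and 1422 ± 170.1 CPM in Ang (SD, n = 3) and log2 0.11. miR-676-3p had log2 1.06 (adjusted p = 0.147) and miR-6781-5p log2 0.50 (adjusted p = 0.464), the direction of the called arm in both. miR-5582-5p had log2 -0.22 and miR-3194-3p log2 0.04, at means of 23.1 and 78.1 CPM over the 6 libraries.

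The 3p arms of 2 miR-125 hairpins rose while the 5p arms did not pass. miR-125b-1-3p, on chromosome 11 outside an annotated host gene, stood at 1685, 1758 and 1736 CPM in the Con libraries and 2459, 2387 and 2545 in the Ang libraries. No Ang library came near Con, and the rise was 1.41-fold (log2 0.50, SE 0.0655, adjusted p = 0.000282), which held under all 16 alternatives. miR-125a-3p rose 1.22-fold, from 1967 ± 73.7 to 2427 ± 118 CPM (SD, n = 3), a call that ended without any Con replicate or Ang replicate 3 (adjusted p up to 0.105). The 5p arms are the main products: miR-125b-5p stood at 22014, 21021 and 20998 CPM in the Con libraries and 20152, 20142 and 21480.4 in the Ang libraries, and miR-125a-5p at 5593, 4924 and 5344 CPM in the Con libraries and 5774, 5386 and 5631 in the Ang libraries. Con and Ang libraries overlapped for both. The 5p sequence of miR-125b is shared by more than 1 hairpin, so its level is not that of the miR-125b-1 hairpin alone. miR-132-5p rose 1.26-fold, from 1517 ± 50.8 to 1923 ± 131 CPM (SD, n = 3), a call that ended without any Con replicate or Ang replicate 1 (adjusted p up to 0.104) and in the fit of all 12 libraries, whereas its better known partner miR-132-3p, which is described as promoting hypertrophy, stood at 58.6, 58.1 and 49.5 CPM in the Con libraries and 51.0, 60.5 and 48.7 in the Ang libraries and did not pass. For miR-6507, from an intron of HPSE2, the 5p arm rose 1.38-fold (log2 0.47, SE 0.0689, adjusted p = 0.00083) with 1813, 2056 and 1821 CPM in the Con libraries and 2619.7, 2665 and 2644 in the Ang libraries, and the 3p arm had log2 -0.35 (adjusted p = 0.0953).

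Names that share a seed were set side by side. miR-320b has the same seed and the same first bases as miR-320c and miR-320d but stood at 212, 163 and 163 CPM in the Con libraries and 145, 159.6 and 119 in the Ang libraries, with log2 -0.37 (adjusted p = 0.209). miR-6855-5p, with the seed of miR-3170, had log2 0.02 (adjusted p = 0.949), and miR-2682-3p, with that of miR-6781-3p, had log2 0.30 (adjusted p = 0.61). miR-3131, from an intron of IHH, and miR-611, which overlaps an exon of TMEM258, share their seed. miR-3131 stood at 565, 546 and 552 CPM in the Con libraries and 791, 842 and 991 in the Ang libraries and rose 1.56-fold (log2 0.64, SE 0.0969, adjusted p = 0.000914), with all Ang libraries above Con. miR-611 stood at 2065, 2211 and 2247 CPM in the Con libraries and 1955, 1792 and 1716 in the Ang libraries and fell 1.21-fold (adjusted p = 0.0316), a small fall that ended without Con replicate 1, 2 or 3 or Ang replicate 2 or 3 (adjusted p up to 0.153) or with library totals. miR-216a-3p fell 1.48-fold from 140.0 ± 4.88 to 95.6 ± 8.63 CPM (SD, n = 3), a call held in only 1 of 6 single-library omissions, while miR-128-3p with the same seed stood at 814 ± 28.9 CPM in Con and 823 ± 36.0 in Ang. Of the names with the seed of miR-99a-5p, that name fell 1.39-fold (276 ± 34.2 to 199 ± 28.3 CPM (SD, n = 3)), and the more abundant miR-100-5p and miR-99b-5p did not pass. The call of miR-99a-5p ended without Con replicate 2 or 3 or Ang replicate 1 or 2 (adjusted p up to 0.172) or with DESeq2 or library totals.

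Neighbours on the genome were counted next, to be read against the 2.76% of all tested names that rose and the 3.80% that fell. In the short clusters a single call exceeds these shares, and nothing particular to a cluster is drawn from it. In the X-chromosome cluster, 1 of 8 tested names of the miR-506 to miR-514 list rose, miR-506-3p, and 2 fell, miR-510-3p and miR-509-3-5p. miR-509-3-5p went from 716 ± 46.6 to 542 ± 23.1 CPM (SD, n = 3), a call that ended without Con replicate 2 or 3 (adjusted p up to 0.0772). The list median was log2 -0.29, against 0.02 for all tested names. In the cluster within the chloride channel gene CLCN5, miR-362-5p was the 1 of 7 tested names that passed. It stood at 2528, 2946 and 2934 CPM in the Con libraries and 2132, 2123 and 2047 in the Ang libraries, with every Ang library below every Con library, and fell 1.35-fold (log2 -0.43, SE 0.0714, adjusted p = 0.00189). In the miR-17-92 cluster on chromosome 13, the passenger arm miR-92a-1-5p passed alone among 9 tested names, 1.20-fold lower, and it did not pass without any Con replicate or Ang replicate 1 or 2 (adjusted p up to 0.17) or with library totals or all 12 libraries. miR-183-5p, on chromosome 7 beside miR-182, stood at 1409, 1665 and 1879.5 CPM in the Con libraries and 2442, 2409 and 2157 in the Ang libraries. Each Ang library was above each Con library, and it rose 1.40-fold (log2 0.49, SE 0.0920, adjusted p = 0.00384). miR-182-5p, a far scarcer name, stood at 32.1, 58.1 and 37.7 CPM in the Con libraries and 59.1, 114 and 54.6 in the Ang libraries. Its groups overlapped and it did not pass (log2 0.77, adjusted p = 0.15), nor did miR-182-3p (log2 -0.25, adjusted p = 0.25). In the imprinted chromosome 14 region 3 of 69 tested list members fell, miR-127-3p, miR-433-3p and miR-433-5p, with none higher, where 3.80% of all tested names fell, so the count is near that background. The list median was log2 -0.02. miR-127-3p went from 4243 ± 112 to 3540.3 ± 161 CPM (SD, n = 3), and its call ended without any Con replicate or Ang replicate 1 (adjusted p up to 0.0692). miR-487b-5p of the same region, which is no list member, went from 1003 ± 152 to 733 ± 88.2 CPM (SD, n = 3), and it did not pass without Con replicate 2 or 3 or Ang replicate 1 or 3 (up to 0.138).

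Base composition and position were compared as a description. The mature sequence had a median GC content of 59.1% among the 42 higher names with a sequence, 50% among the 52 lower ones and 54.5% among the 1462 tested names with one. In 4 groups of these tested names, from the poorest to the richest in GC, 2.60%, 1.71%, 4.56% and 2.66% were higher. The lower names made up 4.26%, 5.14%, 1.71% and 2.96% of the same groups, so neither share followed GC content steadily. The length was 22 bases at the median in each of the 3 sets. Of names with 1 genomic position, 58.5% of the higher, 55.1% of the lower and 56.5% of all tested names lay in an intron of a host gene. With the calls made without Ang replicate 2, the median GC content was 59.1% for 38 higher and 48.9% for 50 lower names with a sequence, and the intron shares were 58.3% and 63.8%.

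Lists drawn up from general knowledge were then counted, to be read against the 2.76% of all tested names that rose and the 3.80% that fell. With so few members a single call exceeds these shares in the short lists, and nothing particular to a list is drawn from it. Of 5 tested muscle names 1 fell and none rose, miR-208a-3p, which regulates the balance of cardiac myosin genes. It stood at 202, 252 and 209.9 CPM in the Con libraries and 155, 152 and 177 in the Ang libraries, with each Ang library below each Con library, and fell 1.38-fold (log2 -0.47, SE 0.133, adjusted p = 0.0446). Without any library but Ang replicate 3 it did not pass (adjusted p up to 0.218), nor did it with DESeq2 or library totals. miR-208b-3p, which has the same seed and lies in MYH7, stood at 92.7, 64.0 and 68.4 CPM in the Con libraries and 75.4, 53.2 and 54.6 in the Ang libraries and did not pass. The list's median was log2 0.21 with Ang replicate 2 and -0.24 without it, and miR-486-5p is 1 of the 5. miR-208a-3p was also the 1 call among 19 tested names described as promoting hypertrophy, with a list median of log2 0.03, while 0 of 15 tested names described as opposing it passed in edgeR (median 0.10). Of that list miR-9-5p came nearest, at 39.7, 46.5 and 44.8 CPM in the Con libraries and 81.5, 79.8 and 56.5 in the Ang libraries (log2 0.71, adjusted p = 0.0674), with every Ang library above Con. It passed with the robust option, with a replicate block and without Ang replicate 3. Of the 14 tested fibrosis names 2 fell, miR-433-3p and miR-208a-3p, and none rose. miR-214-3p, of the same list, stood at 314, 312 and 361 CPM in the Con libraries and 249, 247 and 265 in the Ang libraries. Its groups did not overlap, yet it missed the threshold with log2 -0.39 and adjusted p = 0.0548. It passed in 8 of the 16 alternatives, none of them one that left out a library.

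Among the families, 2 of 5 tested miR-320 names fell, miR-320c and miR-320d, while miR-320b, miR-320e and miR-320a-3p did not pass. The list median of log2 -0.37 is the value of miR-320b (adjusted p = 0.209). That median stayed below 0 under all 16 alternatives, which are refits of these data and no separate support for a fall of the family. The 125, 99, 100 and 10 families had 1 of 7 lower, miR-99a-5p. None passed among 9 let-7 names, 10 of miR-17-92 and its paralogs, 3 of miR-29, 5 of miR-30, 6 of miR-15/16, 11 of the miR-23/27/24 clusters, 4 of miR-221 and miR-222, 7 of miR-34 and miR-449, 3 of miR-181, 4 of miR-143 and miR-145 and 7 inflammation and hypoxia names. Of the last, miR-146a-5p, a brake on inflammatory signalling, had the lowest p (log2 0.41, adjusted p = 0.0873). Medians of these families ran from log2 -0.03 for miR-29 and miR-181 to 0.26 for miR-143 and miR-145. Of the marker lists, miR-126-3p was the 1 call among 6 tested blood cell, 3 liver, 2 endothelial, 5 neuronal and 1 epithelial names. The medians of the miR-29, miR-15/16, miR-221 and miR-222, miR-34 and miR-449, miR-181, neuronal, hypertrophy-promoting, fibrosis, fragment, snoRNA-derived and chromosome 14 lists changed sign under at least 1 alternative, as did those of the muscle, blood cell and endothelial lists, so no direction is given for these. Of 23 tested entries that overlap fragments of other RNAs, 3 rose and none fell, against 2.76% of all tested names that rose and 3.80% that fell. They were miR-1246, miR-1260a and miR-7704, and miR-1290 came next (log2 0.63, adjusted p = 0.0937). miR-1260a, a tRNA fragment entry, went from 3448 ± 120.1 to 4196 ± 189 CPM (SD, n = 3) and miR-7704, whose letters lie in an exon of HOXD1, from 2544 ± 121 to 3221 ± 355 CPM (SD, n = 3). Both calls ended without Con replicate 2 or 3 or Ang replicate 1 (adjusted p up to 0.147 and 0.157) and in the fit of all 12 libraries. Of 20 tested mirtrons, which are spliced out as whole introns, 2 rose and none fell: miR-1237-5p of RPS6KA4 (885 ± 9.76 to 1140.2 ± 104 CPM (SD, n = 3)) and miR-1238-5p of ATG4D (279.5 ± 17.1 to 398 ± 37.1 CPM (SD, n = 3)). Of the single-library omissions, only that of Ang replicate 3 left the first call in place (adjusted p up to 0.133), and the second ended without any Con replicate or Ang replicate 1 (up to 0.0772). Of the chromosome 19 cluster 1 of 14 fell, miR-519c-3p, of the snoRNA-derived names 1 of 5 rose, miR-664a-5p, and of the miR-132 and miR-212 names 1 of 3 rose, miR-132-5p.

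**Figure D5:**
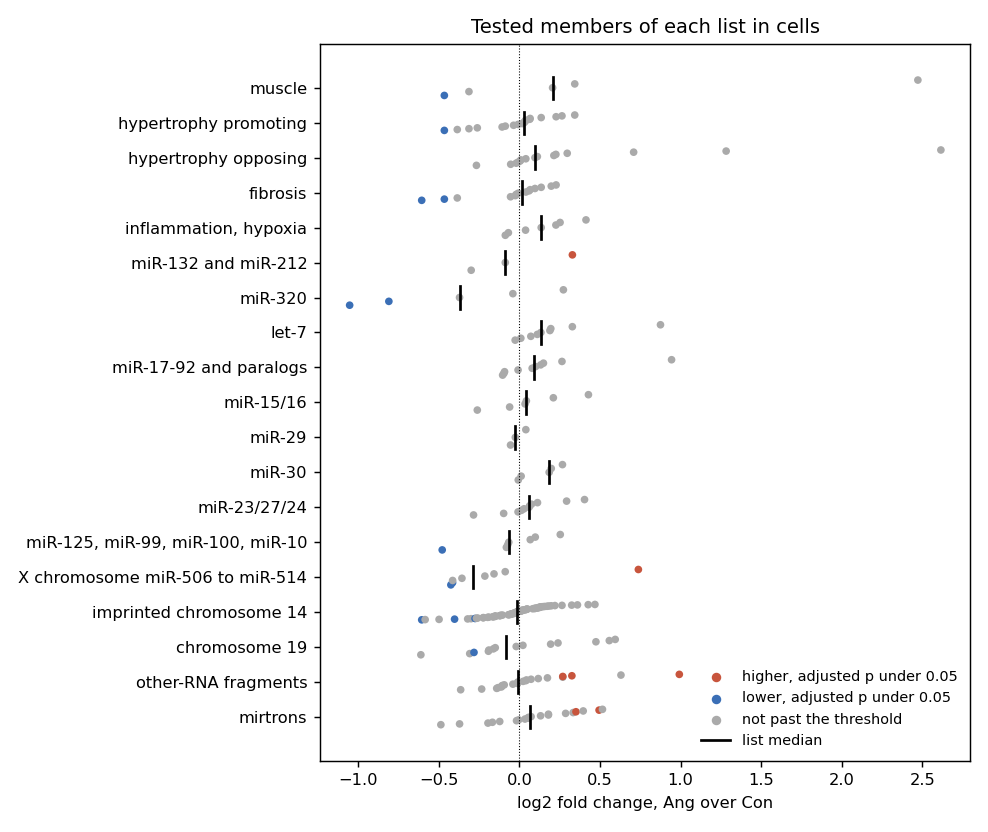
Log2 fold change of Ang over Con for each tested member of 19 lists (points) with the list median (bar); red and blue points passed the threshold, grey ones did not. Most lists scatter around 0, both called miR-320 names lie at the left, and the grey points beyond 1 in the muscle and hypertrophy-opposing rows are marker names carried by Ang replicate 2.

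The changes in cells were finally set beside those in exosomes of the same groups, whose RNA came from another extraction kit. In exosomes 408 of 1199 tested names passed (34.0%), 203 higher (16.9%) and 205 lower (17.1%). Of the 107 names changed in cells 97 were tested there, and 27 passed in the same and 28 in the opposite direction. A test of the difference itself, the change in exosomes minus that in cells, passed for 278 of 1835 names (15.1%), 183 higher (9.97%) and 95 lower (5.18%), or 93 and 222 with library totals in place of TMM. Without cells Ang replicate 2 it passed for 221 names, 151 higher and 70 lower. It passed for 59 of the 107 names, which had been chosen for their change in cells, so this share is not independent of the choice. miR-3922-5p stood at 28.2, 24.8 and 23.7 CPM in the Con exosomes and 8.61, 12.5 and 9.78 in the Ang exosomes, a fall there beside the rise in cells, and the difference was log2 -2.15 (adjusted p = 2.14e-05). miR-8064 stood at 3768, 3248 and 3229.7 CPM in the Con exosomes and 5208, 4659 and 5003 in the Ang exosomes, a rise beside the fall in cells, with a difference of log2 1.57 (adjusted p = 3.08e-07). miR-510-3p, lower in Ang cells, was higher in Ang exosomes, at 1373, 1308 and 1298 CPM in the Con exosomes and 2468, 2452 and 2461 in the Ang exosomes, with a difference of log2 1.62 (adjusted p = 1.08e-07). miR-125b-1-3p rose in both: its exosome values were 1603, 1526 and 1625 CPM in the Con exosomes and 2100.3, 2071 and 1921 in the Ang exosomes, and the difference was not past the threshold at log2 0.16 (adjusted p = 0.302).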

How the data were processed

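Small RNA of 6 whole-cell and 6 exosome samples was made into QIAseq miRNA libraries, per the labels' protocols. The deposited files hold UMI counts for each mature name, not normalized, per the file headers. The submitters' processing notes name cutadapt and GRCh38. An aligner, an annotation and a counter are each not given in the sources used here, so reads of near-identical names may have been divided between them. The cell files list 2656 names and the exosome files 2580, and the 76 others were taken as 0 in exosomes. CPM are counts scaled by library total.

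Ang was compared with Con in edgeR 4.0.16 (R 4.3.3; filterByExpr, TMM, two-sided quasi-likelihood test, robust option off). P-values were adjusted by Benjamini-Hochberg over the names tested, with a threshold of 0.05, and every adjusted p is from this fit unless another tool is named. The fit was tested on simulated counts with 200 changed names. In cells it found 50.5% of the 1.5-fold and 81.4% of the 2-fold changes, with 6 false calls among 134 calls. For the exosome difference it found 9% and 36.2%, with 3 false calls among 46, so many true differences of that size would not pass. The exosome difference was an interaction over all 12 libraries. Alternatives were RLE size factors, library totals, DESeq2 1.42.0, limma-voom (limma 3.58.1), the robust option, no filter, a 10 CPM filter, a replicate block, all 12 libraries together, removal of marker names, and each library left out. Sums were compared by exact permutation (SciPy 1.17.1). Sequences and mature-arm positions come from RefSeq (GRCh38.p14), host genes from the GENCODE annotation.

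By rule, the named miRNAs are the 10 largest rises and 10 largest falls that passed, averaged 10 CPM or more and did not overlap between groups; the 5 most abundant of each group; list members that passed and up to 3 others of lowest p; the other arm and same-seed names of the first 20; the 5 largest changes whose call ends without Ang replicate 2; and the tested blood, liver and endothelial names. Of list members that did not pass, only some of those the rule gives are printed. Other names, among them miR-1231, miR-875-5p, miR-3131, miR-611, miR-125b-1-3p, miR-183-5p, miR-362-5p and miR-6507, were chosen after their values were seen. The comparison and the lists were chosen with earlier results of these data known.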

Additional observations from a re-analysis of the deposited data

Results flagged for a closer look

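The names listed here changed differently in cells and in exosomes, by the edgeR test of the Ang change in exosomes minus that in cells (log2, 3 libraries in each of 4 groups). Of the 20 names with the largest changes in cells and miR-510-3p, 12 of 21 passed that test, where 15.1% of all names did; they had been chosen for their change in cells. Among names lower in Ang cells the difference was 1.57 for miR-8064, 1.62 for miR-510-3p, 1.43 for miR-3170, 1.40 for miR-3194-5p, 1.32 for miR-320d and 1.23 for miR-320c. Among names higher in Ang cells it was -2.15 for miR-3922-5p, -1.54 for miR-7160-5p, -1.42 for miR-1303, -0.98 for miR-506-3p and -0.80 for miR-6510-3p. For miR-126-3p it was -3.52, and -1.20 (adjusted p = 0.202) without cells Ang replicate 2. That difference did not pass either with limma-voom (adjusted p = 0.247), the robust option (0.201) or a replicate block (0.0541), or without any Con replicate of cells, exosome Con replicate 2 or 3 or exosome Ang replicate 1 or 3 (up to 0.102). The sign held for these 12 names with RLE size factors, library totals and DESeq2, where DESeq2 gave no adjusted p for miR-126-3p and miR-7160-5p. miR-506-3p did not pass with RLE (adjusted p = 0.0584) or without cells Con replicate 1 or 3, cells Ang replicate 1, exosome Con replicate 1 or exosome Ang replicate 2 or 3 (up to 0.106). miR-6510-3p did not pass with DESeq2 (0.0863), with no count filter (0.0513), without cells Ang replicate 2 (0.0542) or without cells Con replicate 1 or 3 or Ang replicate 1 (up to 0.0865). In exosomes alone the Ang change passed in edgeR for miR-8064, miR-510-3p, miR-3922-5p and miR-1303. It did not pass there for miR-320d (log2 0.12), miR-320c (0.28), miR-3194-5p (0.44), miR-3170 (0.56), miR-6510-3p (-0.013), miR-506-3p (-0.38), miR-7160-5p (-0.72) or miR-126-3p (-1.19). For these names no opposite change in exosomes is shown. Of 4 names added after their values were seen, the difference was 1.85 for miR-519c-3p, 1.66 for miR-3614-3p, 1.63 for miR-362-5p and -2.55 for miR-4699-3p. Cells and exosomes came from different extraction kits, and a part of the kits in these differences cannot be told apart.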

How the results depend on the processing

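With 3 libraries a group, a name that did not pass is not shown to be unchanged. With single libraries left out, 38 to 97 names passed (16 to 40 higher, 22 to 57 lower): 38 (16 higher, 22 lower) without Con replicate 2 and the same without Con replicate 3, 70 (40 lower) without Ang replicate 1, and 24 higher without Con replicate 1. A fit of all 12 libraries gave 29 higher and 65 lower, and the other alternatives stayed within 1.5 times of 45 and 62 (DESeq2 34 and 57, limma-voom 43 and 64, marker names removed 48 and 70). Library totals gave 93 higher and 222 lower for the exosome difference. Over the single-library omissions the log2 change ran from -0.25 to 3.14 for miR-142-3p, -0.77 to 3.03 for miR-486-5p, -0.15 to 1.74 for miR-150-5p, -0.10 to 0.39 for miR-223-3p and -0.69 to 0.37 for miR-126-5p (-0.17 with limma-voom). The summed CPM, Ang minus Con, ran from -151 to 2316 for blood cell, -94.4 to 1979.7 for endothelial and -78.5 to 382 for muscle names. Each lowest value is the one without Ang replicate 2. The exosome difference of miR-12121 turned to -0.13 with library totals and ran from -0.049 (without cells Ang replicate 3) to 0.41 over the omissions of single libraries, and the cause was not tested. Names that had not passed and lay near 0 also turned: let-7a-5p (-0.0028 with RLE, -0.0029 with DESeq2, -0.020 without a filter, -0.022 with the 10 CPM filter, -0.047 with all 12 libraries, and -0.047 to 0.079 over omissions), miR-128-3p (-0.012 with RLE and with DESeq2, -0.029, -0.030 and -0.055 in the same last 3 fits, -0.0070 without marker names, and -0.041 to 0.024 over omissions), miR-192-5p (-0.0011, -0.0036 and -0.028 in those 3 fits, and -0.10 to 0.26 over omissions), as did miR-6855-5p (-0.011 without a filter, -0.038 with all 12 libraries, and -0.053 to 0.066 over omissions) and miR-3194-3p (-0.12 to 0.12 over omissions).

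The labels number the replicates of each group but do not say what a number shares. Deviations of same-numbered Con and Ang libraries correlated with r of -4.06e-05, 0.054 and -0.019 over names. Those of differently numbered libraries had r from -0.040 to 0.047, which is of the same size. The numbers were not taken as pairs because no label gives them as such, and values this small cannot exclude that they are. With a replicate block 132 names passed, 62 higher and 70 lower, and miR-126-5p turned to -0.065.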

Other observations

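Some names changed in cells in a direction opposite to a larger change in exosomes, and those below were picked after their values were seen. miR-4699-3p, from an intron of ACSS3, rose in cells 1.58-fold, with 112, 103 and 101 CPM in the Con libraries and 169, 164 and 172 in the Ang libraries. In exosomes it stood at 1908, 1819 and 1786 CPM in the Con exosomes and 379, 399 and 421 in the Ang exosomes, and the difference of the changes was log2 -2.55 (adjusted p = 1.65e-09). miR-3614-3p, which overlaps an exon of the ubiquitin ligase TRIM25, fell in cells 1.22-fold, with 3892, 4477 and 4559 CPM in the Con libraries and 3401, 3763 and 3506 in the Ang libraries, and stood at 1133, 1021 and 1053 CPM in the Con exosomes and 2458, 2039.7 and 2229.7 in the Ang exosomes. Each cell library of Ang lay below each of Con and each exosome library of Ang above. The cell call of miR-3614-3p ended without Con replicate 2 or 3 or Ang replicate 1 or 3 (adjusted p up to 0.136), and that of miR-4699-3p without Con replicate 2 (up to 0.0529).

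miR-375-5p, an arm of a miRNA known from pancreatic islets, rose in cells 1.40-fold, with 883, 893 and 976 CPM in the Con libraries and 1415, 1386 and 1102 in the Ang libraries. The call ended without Con replicate 2 (adjusted p = 0.0644). It was the more abundant arm in these cells, at a mean of 1109 CPM against 35.7 CPM for miR-375-3p, which did not pass (log2 0.28, adjusted p = 0.759).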
